A study of Mus musculus with 6 samples.

Results

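The cytochrome P450 genes described here are the members of the superfamily other than the Cyp2b, Cyp2c and Cyp3a drug-metabolising genes and the bile acid and cholesterol synthesis genes Cyp7a1, Cyp7b1, Cyp8b1, Cyp27a1 and Cyp51. They were found by the words cytochrome P450 in the array's probe descriptions and a current symbol beginning with Cyp. Of 70 probes with that description, 31 probes of 28 genes met the rule, out of 9345 genes with a current symbol on the array. Another 17 probes of 17 genes were left out by name, and 22 probes had no current symbol and are counted separately. Some of those 22 are described by the names of genes in the set, among them Cyp2j5, Cyp2d10 and Cyp1b1. Their values are not given here, so whether they follow the named probe is not shown. All 28 genes were tested, and 25 of them were well above background in every reading. Among probes with a current symbol, 3 genes had 2, of which the brighter is given.

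RNA came from mice of the C3H/HeNCrlBR background at 39 weeks of age, all of which had received diethylnitrosamine (DEN), a carcinogen that starts liver tumours. Phenobarbital (PB), a tumour promoter, was given in the drinking water. The RNAs were liver tumour of wild-type mice given DEN and PB (WT tumour), liver of wild-type mice given both (WT liver), liver of CAR-knockout mice given both (CAR-KO DEN-PB liver), and liver of CAR-knockout mice given DEN without PB (CAR-KO DEN liver). CAR, encoded by Nr1i3, is the nuclear receptor through which PB induces many P450 genes. The 3 comparisons were each made on 2 arrays of 2 colours (Cy3 and Cy5) with the dyes swapped, 6 arrays in all: WT tumour over CAR-KO DEN-PB liver, WT liver over CAR-KO DEN-PB liver, and CAR-KO DEN-PB liver over CAR-KO DEN liver. In a ratio, CAR-KO liver below means CAR-KO DEN-PB liver, which was read 6 times and each other RNA 2 times. The labels do not give the sex or number of animals behind an RNA, nor whether 1 extract served both arrays of a comparison, so p-values measure the spread between arrays, which may be technical.

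Cytochrome P450 enzymes are haem proteins, most of them in the endoplasmic reticulum, that insert an oxygen atom into a substrate with electrons passed on by P450 reductase (Por). Families 1 and 2 mainly oxidise foreign compounds and, in mouse liver, steroids; family 4 hydroxylates fatty acids; other members make steroid hormones or clear retinoic acid and vitamin D. Hepatocytes hold much of the body's P450, and many members are transcribed in zones of the liver lobule or differ between the sexes.

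The stretch of 250 bases before a transcription start annotated by RefSeq is shown for the 4 genes that passed the test in WT tumour (Cyp2a4, Cyp1a2, Cyp2f2 and Cyp46a1) and for Cyp26a1. Readings of Cyp26a1 in both WT RNAs lay above all those of CAR-KO liver, which also held for Cyp2d10, not shown here. The sequences are RefSeq's on build GRCm38.p6, 5′ to 3′ in the direction of transcription, at chr7:26306942-26307191 (+ strand) for Cyp2a4, chr9:57683656-57683905 (− strand) for Cyp1a2, chr7:27119705-27119954 (+ strand) for Cyp2f2, chr12:108334066-108334315 (+ strand) for Cyp46a1 and chr19:37697558-37697807 (+ strand) for Cyp26a1. Capitals mark TATAAA (the TATA box), GCGTG (the core bound by the aryl hydrocarbon receptor) and AGGTCA (a nuclear receptor half-site) in the first 4, and in Cyp26a1 the retinoic acid response element, 2 copies of AGTTCA with 5 bases between them, on the opposite strand.
Cyp2a4: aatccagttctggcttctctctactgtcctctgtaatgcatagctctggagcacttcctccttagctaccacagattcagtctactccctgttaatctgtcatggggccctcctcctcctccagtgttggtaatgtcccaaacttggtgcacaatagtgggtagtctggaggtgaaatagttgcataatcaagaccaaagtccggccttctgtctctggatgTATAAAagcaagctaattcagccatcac
Cyp1a2: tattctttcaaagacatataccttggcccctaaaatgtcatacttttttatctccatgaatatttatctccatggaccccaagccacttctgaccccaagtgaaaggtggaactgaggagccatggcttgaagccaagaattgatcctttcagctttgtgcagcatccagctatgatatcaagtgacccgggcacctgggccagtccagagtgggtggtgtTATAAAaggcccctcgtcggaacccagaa
Cyp2f2: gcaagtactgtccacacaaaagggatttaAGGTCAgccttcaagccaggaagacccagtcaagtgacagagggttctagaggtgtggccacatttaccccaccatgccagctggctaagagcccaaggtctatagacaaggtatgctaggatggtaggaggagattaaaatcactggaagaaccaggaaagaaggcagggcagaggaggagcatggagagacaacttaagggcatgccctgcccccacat
Cyp46a1: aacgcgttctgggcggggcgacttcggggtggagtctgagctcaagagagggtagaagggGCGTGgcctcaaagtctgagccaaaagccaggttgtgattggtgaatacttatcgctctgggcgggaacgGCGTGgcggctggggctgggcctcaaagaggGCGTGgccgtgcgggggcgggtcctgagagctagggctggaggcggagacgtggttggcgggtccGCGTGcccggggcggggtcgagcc
Cyp26a1: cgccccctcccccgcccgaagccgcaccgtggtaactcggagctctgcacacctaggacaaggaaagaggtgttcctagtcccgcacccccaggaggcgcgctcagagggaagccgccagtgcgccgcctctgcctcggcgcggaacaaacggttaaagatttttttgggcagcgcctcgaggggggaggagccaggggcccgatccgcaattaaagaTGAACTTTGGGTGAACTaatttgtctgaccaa
Cyp2a4 and Cyp1a2 hold 1 TATAAA each, beginning 28 and 29 bases before the start, Cyp2f2 holds 1 AGGTCA and Cyp46a1 holds 4 GCGTG. Both strands were searched in 32851 promoters, of which 21 were members. TATAAA lay in 10 of the 21 (12.4% of all promoters), GCGTG in 4 (28.2%), AGGTCA in 3 (14.0%) and the retinoic acid element in Cyp26a1 alone (0.0213%). The start used is the gene's annotated start for Cyp2a4, Cyp1a2 and Cyp2f2. For Cyp46a1 and Cyp26a1 it lies 48 and 70 bases past the annotated gene start, so the last stretch shown lies within the annotated gene. That holds for the marked element of Cyp26a1 and for the last GCGTG of Cyp46a1, which begins 24 bases before the start used. No motif overlapped another in the sequences shown, and a match is a description of the letters, not of binding.

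The 4 measured of 9 hepatocyte markers (Ttr, Apoa1, Ahsg and Apoa2) had mean log2 signals of 9.64 to 15.55 and none passed in any comparison, with log2 ratios of -0.63 to -0.12 in WT tumour over CAR-KO liver (median -0.42) and a median of -0.20 in WT liver over CAR-KO liver. Array 2 of the tumour pair stands apart by its local background, a median of 288 in Cy3 and 299 in Cy5, against 53 to 62 on the others. Across all probes the 2 arrays correlated at r = 0.39 in the tumour pair, r = 0.03 in the WT liver pair and r = -0.35 in the PB pair, over probes of 1 pair of arrays each. These ratios still hold each probe's dye effect, which enters the 2 arrays of a swap with opposite sign and lowers r. Its part in the values of r was not tested. Before that effect is fitted, the PB pair's arrays thus oppose each other on balance, and the pair's fitted directions rest on the labels. The deleted gene Nr1i3 gave 0.79 as the log2 ratio for WT liver (1.08 on array 1 and 0.49 on array 2, limma adjusted p = 0.412). For WT tumour it gave 1.81 (1.71 on array 1 and 1.90 on array 2, limma adjusted p = 0.00194). Where its probe lies relative to the deletion is not stated, so the labels are not checked by it. Among markers of other cell types, 3 of 3 measured skeletal muscle genes were lower in WT tumour than in CAR-KO liver (Tnnc2, Mylpf and Tnni2; median log2 ratio -1.25), Tnnc2 was also lower in WT liver (-1.78; list median -0.87), and the list median was 0.99 in the PB comparison. Summed over these 3 of 5 listed genes, the normalised intensity was 340 to 362 in WT tumour, 367 to 371 in WT liver, 771 to 1177 in CAR-KO DEN-PB liver and 354 to 389 in CAR-KO DEN liver. Of 4 measured cholangiocyte markers, only Krt19, a dim probe (mean log2 signal 6.55), passed, and it was higher in WT tumour (1.13). The list's ratios there ran from -0.23 to 1.13, with a median of 0.002. The summed level over the 4 genes was 724 to 771 in WT tumour, against 674 to 813 in CAR-KO DEN-PB liver. None of the macrophage, endothelial, stellate, lymphocyte, steroidogenic or acinar markers passed. The part of other cells in the values below was not tested.

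WT tumour differed from CAR-KO DEN-PB liver in 4 of the 28 P450 genes. Cyp2a4 and Cyp1a2 were higher, and Cyp2f2 and Cyp46a1 lower, in WT tumour (limma, 2-sided, adjusted p under 0.05 over all probes). That is 14.3% of the members, where 3.36% of 20744 probes passed (2.53% higher and 0.839% lower). Of all calls 75.1% were thus higher, against 57.3% with median centring of the arrays and 38.2% without tumour array 2. The 28 log2 ratios ran from -2.05 to 2.66 with a median of 0.06, where all probes had a median of -0.01, and 24 of the 28 lay within 1 log2 unit of 0. WT tumour and CAR-KO DEN-PB liver differ in both tissue and genotype, which this comparison cannot tell apart. In RNA from whole tissue, fewer cells of a type and less RNA per cell cannot be told apart.

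**Figure D1:**
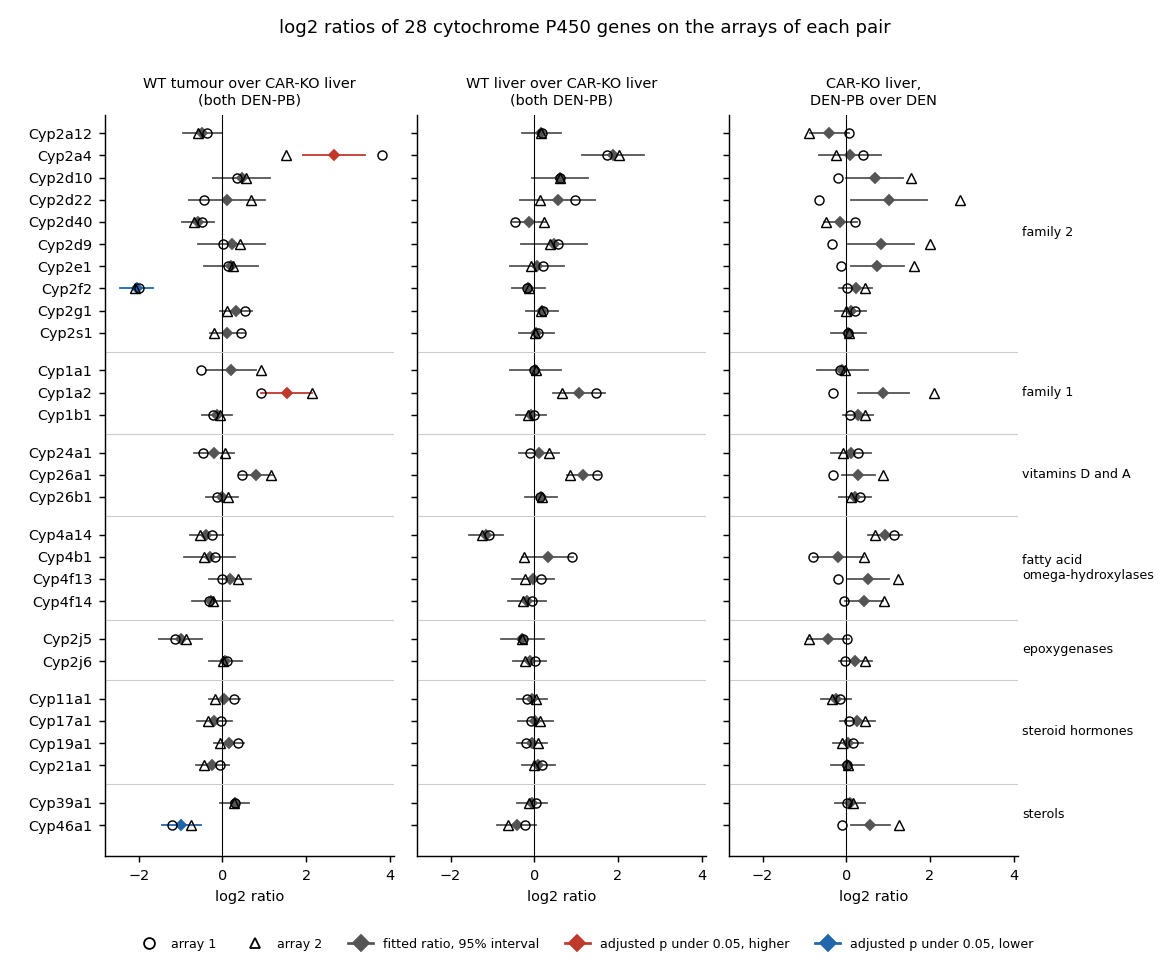
log2 ratios (x axis) of the 28 P450 genes, grouped by role, in the 3 direct comparisons; circles and triangles are arrays 1 and 2, diamonds the limma ratio with its 95% interval, red and blue the genes with an adjusted p under 0.05. Cyp2a4 (2.66) and Cyp1a2 (1.53) lie to the right and Cyp2f2 (-2.05) and Cyp46a1 (-0.98) to the left in WT tumour, and the circles and triangles of the PB comparison fall apart by up to 3.36.

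Cyp2f2, which oxidises naphthalene and is made by periportal hepatocytes and lung club cells of mice, gave the smallest adjusted p of the set. Its normalised intensities were 2969 and 2703 in WT tumour, against 11895 and 8649.6 in WT liver and a lowest, median and highest of 9444, 11699 and 13406 in the 6 readings of CAR-KO DEN-PB liver. The tumour readings were the lowest of all and did not overlap with any liver reading, which included 12072 and 6907 in CAR-KO DEN liver. The log2 ratio of WT tumour over CAR-KO liver was -2.05 ± 0.17 (SE; -1.99 and -2.10 on the 2 arrays), a 4.13-fold difference with a limma adjusted p of 0.00163. The call was lost only with the authors' processed log ratio (adjusted p = 0.122), among 15 alternatives that kept the ratio between -2.20 and -1.36.

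Cyp2a4, a steroid hydroxylase that female mouse liver makes more of than male liver, had the highest ratio of the members. WT tumour read 40166 and 22381, the second of these on a saturated spot. WT liver read 19739.5 and 18931, CAR-KO DEN-PB liver had a lowest, median and highest of 2866, 5685 and 7843, and CAR-KO DEN liver read 4866 and 6446. Both WT RNAs lay above every CAR-KO reading. The log2 ratio of WT tumour over CAR-KO liver was 2.66 ± 0.32 (a 6.32-fold difference; limma adjusted p = 0.00577), with 3.81 on array 1 and 1.51 on array 2, where the tumour spot was saturated. Without array 2 the ratio was 3.58 and without array 1 it was 1.74. The call was lost with the authors' processed log ratio (adjusted p = 0.157) and when the tumour pair was fitted alone (adjusted p = 0.152). Cyp2a5, a near-identical gene on the same chromosome, had no named probe, and whether the Cyp2a4 probe also reads it was not tested.

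Cyp1a2, the liver enzyme that oxidises caffeine and aromatic amines, is expressed by pericentral hepatocytes and rises further when the aryl hydrocarbon receptor is active. Its normalised intensities were 1245 and 3767 in WT tumour, 1505 and 1103 in WT liver, a lowest, median and highest of 505, 600.3 and 851 in CAR-KO DEN-PB liver, and 653 and 119 in CAR-KO DEN liver. The WT tumour and WT liver readings lay above all CAR-KO readings. The log2 ratio of WT tumour over CAR-KO liver was 1.53 ± 0.26 (0.92 and 2.15 on the arrays; 2.90-fold; limma adjusted p = 0.0247). It passed in 11 of 15 alternatives and kept its sign in all 15, and was lost without the dye term, with array weights, with the 2 arrays alone and with the processed log ratio (adjusted p between 0.137 and 0.305).

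Family 1's other members were near the detection limit. Cyp1a1, the classical target of the aryl hydrocarbon receptor, was well above background in both WT tumour readings (80.1 and 120.3), in 1 of 6 readings of CAR-KO DEN-PB liver (115, on tumour array 1) and in no reading of WT liver or of CAR-KO DEN liver. Its tumour ratio was -0.52 on array 1 and 0.93 on array 2, so the arrays disagreed in sign, and without array 1 it was 0.91. Cyp1b1, which also oxidises oestrogens, had a log2 ratio of -0.13 ± 0.15 in WT tumour.

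Cyp46a1, known as the cholesterol hydroxylase of neurons, read 139 and 136 in WT tumour, against 195 and 157 in WT liver and a lowest, median and highest of 226, 238 and 324 in CAR-KO DEN-PB liver. CAR-KO DEN liver read 249.9 and 111. WT tumour and WT liver readings were all below the 6 readings of CAR-KO DEN-PB liver, without overlap. The log2 ratio of WT tumour over CAR-KO liver was -0.98 ± 0.20 (-1.22 and -0.75; limma adjusted p = 0.0466), near the threshold, and it passed in 5 of 15 alternatives. It was lost without any single array except tumour array 1, with adjusted p between 0.0526 and 0.0741. Cyp39a1, an oxysterol hydroxylase of liver, read 134 and 169.8 in WT tumour and 125 and 126 in WT liver, against 108 to 141 in CAR-KO DEN-PB liver.

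Cyp26a1 and Cyp2j5 came close to the threshold in WT tumour. Cyp26a1, which clears retinoic acid, had a log2 ratio of 0.80 ± 0.17 (0.46 and 1.15; limma adjusted p = 0.0522), with 391 and 504 in WT tumour, 555 and 388 in WT liver and 198, 223 and 285 as the lowest, median and highest in CAR-KO DEN-PB liver. Cyp2j5, an arachidonic acid epoxygenase of kidney and liver, had -1.003 ± 0.22 (-1.12 and -0.88; adjusted p = 0.0563), with 562 and 1058 in WT tumour, 1460.5 and 1389.6 in WT liver and 1223, 1730.3 and 1951 in CAR-KO liver. Cyp26a1 readings of both WT RNAs were above all CAR-KO readings, and Cyp2j5 was low in WT tumour and within the CAR-KO DEN-PB range in WT liver. Without tumour array 2 the ratio was 0.92 for Cyp26a1 and -1.35 for Cyp2j5, each resting on 1 tumour array.

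**Figure D2:**
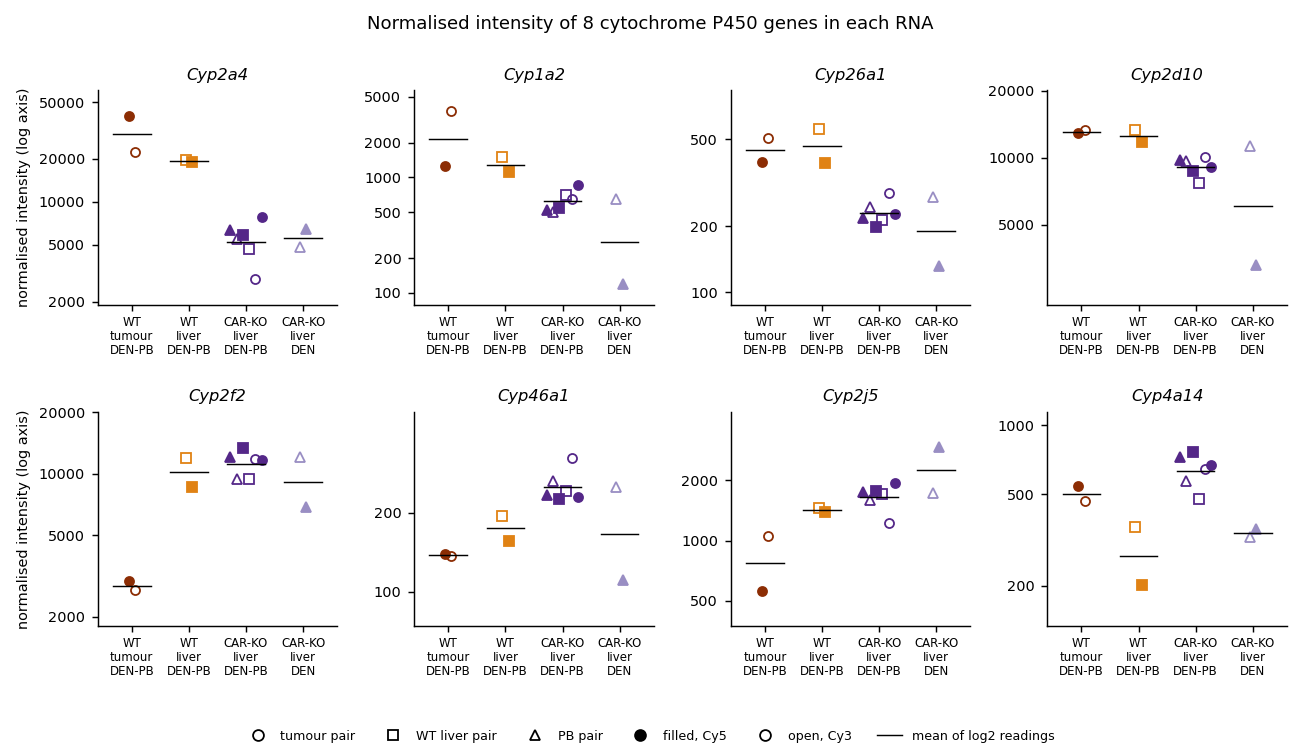
Normalised intensity (log axis) of 8 P450 genes in WT tumour, WT liver, CAR-KO DEN-PB liver, and CAR-KO DEN liver; each point is a reading, its shape the pair of arrays and its fill the dye (filled Cy5, open Cy3), and the bar is the mean of the log2 readings. Cyp2a4, Cyp1a2, Cyp26a1 and Cyp2d10 are higher in both WT RNAs than in CAR-KO liver, Cyp2f2 is lowest in WT tumour (2969 and 2703), and the filled triangle of CAR-KO DEN liver is the low reading for Cyp1a2 (119), Cyp26a1 (132) and Cyp2d10 (3281).

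The other family 2 genes, which oxidise drugs, solvents and steroids, did not pass the test in WT tumour. Cyp2e1, which oxidises ethanol and small nitrosamines such as DEN, read 12378 and 16453 in WT tumour, 10430.3 and 10467 in WT liver, and 8973, 11171 and 13791 as the lowest, median and highest in CAR-KO DEN-PB liver (log2 ratio of WT tumour 0.20 ± 0.27). Its groups overlapped. Cyp2d10 read 12833 and 13340.0 in WT tumour and 13268 and 11786 in WT liver, both above the CAR-KO range of 7715 to 10036, with a WT tumour ratio of 0.46 ± 0.29 (limma adjusted p = 0.372). Cyp2a12, a steroid hydroxylase encoded beside Cyp2f2, read 5349 and 6456 in WT tumour against 6959.5 to 9664 in CAR-KO liver (-0.48 ± 0.20, adjusted p = 0.206). Cyp2d40 had -0.59 ± 0.17 (limma adjusted p = 0.110), which was -0.83 without tumour array 2, and Cyp2d9, Cyp2d22, Cyp2g1 and Cyp2s1 lay between 0.12 and 0.32.

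None of the fatty acid omega-hydroxylase, vitamin D or steroid hormone genes passed in WT tumour. The fatty acid omega-hydroxylases Cyp4a14, Cyp4b1, Cyp4f13 and Cyp4f14 had log2 ratios between -0.39 and 0.18, and Cyp4b1 had -1.03 without tumour array 1. Cyp4f14, which acts on leukotrienes and fatty acids, read 1931 and 2685 in WT tumour, 2614 and 1937 in WT liver and 2129.5 to 3159 in CAR-KO DEN-PB liver. The vitamin D hydroxylase Cyp24a1 (-0.21) and the retinoic acid hydroxylase Cyp26b1 (-0.004) were dim, and Cyp24a1 had -0.67 without tumour array 2. Cyp2j6, the other epoxygenase, had 0.07 ± 0.17, with 192 and 188 in WT tumour against 177 to 233 in CAR-KO liver; its dimmer probe had -0.61 on array 1 and 0.74 on array 2. Of the steroid hormone genes, Cyp17a1 had -0.19 ± 0.18, Cyp21a1 -0.24 ± 0.17, Cyp19a1 0.15 ± 0.15 and Cyp11a1 0.05 ± 0.16. The dimmer probe of Cyp11a1 had 0.40 ± 0.17 (0.75 and 0.06; limma adjusted p = 0.204), and that of Cyp17a1 had -0.06 ± 0.17.

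Steroid hormone synthesis belongs to adrenal gland and gonad, although mouse liver transcribes some Cyp17a1. Cyp17a1 read 530.5 and 804 in WT tumour, 826 and 955 in WT liver and 545, 864 and 1022 as the lowest, median and highest in CAR-KO DEN-PB liver. Cyp21a1, the steroid hydroxylase needed for corticoids, read 249.9 and 448 in WT tumour, 517 and 505 in WT liver and 258 to 608 in CAR-KO liver. The groups of both genes overlapped. In CAR-KO DEN liver Cyp17a1 read 778 and 626, and Cyp21a1 read 421 and 356.

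WT liver was compared with CAR-KO DEN-PB liver to ask which genes depend on CAR. None of the 28 passed limma's test, where 0.101% of probes did (0.0916% higher and 0.00964% lower), and 4 of the 28 and 471 of all probes had an unadjusted p under 0.05. The 28 log2 ratios ran from -1.16 to 1.88 with a median of 0.03 (all probes -0.02). Cyp2a4 had 1.88 ± 0.32 (1.74 and 2.02 on the arrays; adjusted p = 0.184), Cyp26a1 1.17 ± 0.17 (1.49 and 0.86; adjusted p = 0.117), Cyp1a2 1.06 ± 0.26 (1.47 and 0.66; adjusted p = 0.828) and Cyp4a14 -1.16 ± 0.17 (-1.08 and -1.24; adjusted p = 0.120). Cyp2a4, Cyp26a1 and Cyp4a14 passed when array weights were used (limma adjusted p = 0.00281, 0.00381 and 0.00432). All 4 passed with the 2 arrays of this pair alone, a fit without the dye effect. Without either tumour array Cyp2a4, Cyp26a1 and Cyp4a14 passed too, when 76 probes were higher and 18 lower.

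Cyp4a14, a fatty acid omega-hydroxylase induced by PPARalpha, read 545 and 467 in WT tumour, 362 and 201 in WT liver, 475, 660.3 and 763 as the lowest, median and highest in CAR-KO DEN-PB liver, and 327 and 352 in CAR-KO DEN liver. CAR-KO DEN-PB liver was above WT liver and above CAR-KO DEN liver in every reading. The summed level of skeletal muscle markers was likewise highest in CAR-KO DEN-PB liver (771 to 1177, against 340 to 389 in the other RNAs), and its part in the result was not tested. The array also holds 2 probes without a current symbol that it describes as the related gene 4a10. In WT liver over CAR-KO liver the brighter of them had a log2 ratio of -1.02 ± 0.16 and the dimmer -0.97 ± 0.17, where Cyp4a14 had -1.16. In the PB comparison they had 0.68 ± 0.16 and 0.92 ± 0.17, where Cyp4a14 had 0.92. In WT tumour over CAR-KO liver they had -0.97 ± 0.16 (limma adjusted p = 0.0191) and -0.67 ± 0.17, where Cyp4a14 had -0.39 ± 0.17 (adjusted p = 0.222). Cyp4a14 and 4a10 are close in sequence, and whether a probe reads both was not tested.

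Counting readings instead of fitting ratios, both WT tumour readings lay above all 6 readings of CAR-KO DEN-PB liver for Cyp2a4, Cyp1a2, Cyp26a1 and Cyp2d10, and below all 6 for Cyp2a12, Cyp2d40, Cyp2f2, Cyp2j5 and Cyp46a1. That is 9 of 28, or 32.1%, where 18.1% of probes did so (11.3% above and 6.75% below). Both WT liver readings lay above for Cyp2a4, Cyp1a2, Cyp26a1 and Cyp2d10 and below for Cyp46a1 and Cyp4a14, which is 6 of 28, or 21.4%, where 4.38% of probes did so (1.87% above and 2.51% below). WT tumour and WT liver were set against the same CAR-KO readings.

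Cyp2a4 lies in a cluster of family 2 genes on chromosome 7. In RefSeq's gene order the cluster holds 13 coding genes from Cyp2s1 to Cyp2t4, of which 9 had a named probe. Cyp2a4 is next to Cyp2b9, and Cyp2b10, Cyp2b13, Cyp2b9 and Cyp2a4, which follow each other in that order, had log2 ratios of 2.30, 4.56, 4.23 and 2.66 in WT tumour and 1.89, 3.61, 4.76 and 1.88 in WT liver. At either side the ratios in WT tumour and WT liver were smaller, with 0.12 and 0.05 for Cyp2s1, which skin and airway express, -0.014 and 0.00046 for Cyp2b19, and 0.32 and 0.18 for Cyp2g1, an olfactory P450. Cyp2a12 and Cyp2f2 at the far end had -0.48 and -2.05 in WT tumour and 0.17 and -0.15 in WT liver.

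**Figure D3:**
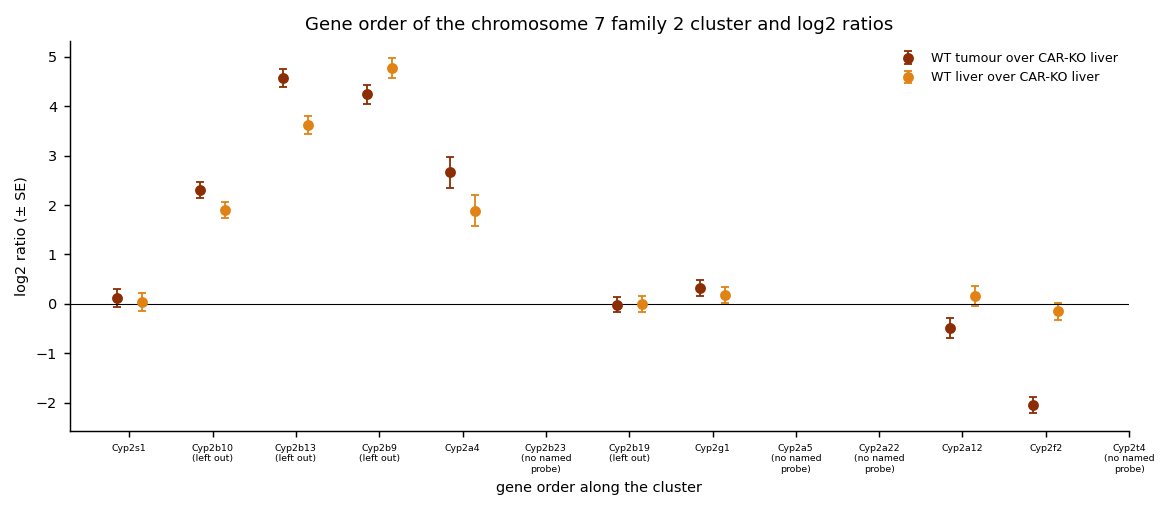
log2 ratio (y axis, ± SE) of WT tumour and of WT liver over CAR-KO liver for the genes of the chromosome 7 cluster in their order (x axis, no distances); left out marks Cyp2b genes outside the set. The 4 genes from Cyp2b10 to Cyp2a4 lie between 1.88 and 4.76, and Cyp2f2 is at -2.05 in WT tumour and -0.15 in WT liver.

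WT tumour was set against WT liver indirectly, as the difference of their ratios to CAR-KO liver in the same fit. None of the 28 passed, where 0% of probes passed, and 2 of the 28 and 1737 of all probes had an unadjusted p under 0.05. Those 2 were Cyp2f2, with -1.89 ± 0.24 (3.72-fold; limma adjusted p = 0.137), and Cyp4a14, with 0.77 ± 0.24 (adjusted p = 0.543). Cyp2a4 had 0.78 ± 0.45, which was 1.70 without tumour array 2 and -0.14 without tumour array 1. The value of -0.14 rests on tumour array 2, where the Cyp2a4 tumour spot was saturated. Cyp2j5 had -0.71 ± 0.31 and Cyp2a12 -0.65 ± 0.29. The median of the 28 was -0.13 (all probes -0.01), and it ran from -0.25 to 0.16 over the alternatives. Cyp2f2 had -2.05 without tumour array 1 and -1.74 without tumour array 2, each resting on 1 tumour array.

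CAR-KO DEN-PB liver was compared with CAR-KO DEN liver to ask what PB does without CAR. None of the 28 passed limma's test, where 0% of probes passed, and 7 of the 28 and 565 of all probes had an unadjusted p under 0.05. The median was 0.21 (all probes -0.01), with 22 ratios above 0 and 6 below, where all probes had 9898 above and 10844 below. Over the alternatives the median ran from 0.001 to 0.40. The arrays had the same sign for 11 of the 28 and differed by over 1 log2 unit for 9. Of 20744 probes, 7634 had the same sign on both arrays and 1132 differed by over 1 log2 unit. Cyp2d22 had -0.65 on array 1 and 2.71 on array 2, Cyp1a2 -0.31 and 2.09, the male-predominant steroid hydroxylase Cyp2d9 -0.34 and 1.99, Cyp2e1 -0.13 and 1.61, and Cyp2d10 -0.20 and 1.55.

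The 2 readings of CAR-KO DEN liver lay apart. The reading on array 2 (Cy5) was below the lowest of the 6 readings of CAR-KO DEN-PB liver for 12 of the 28 genes and above the highest for 4, while the reading on array 1 was below for 1 and above for 5. Of 20572 probes, 3514 were below and 3604 above on array 2, and 1338 were below and 1733 above on array 1. CAR-KO DEN liver read 5881 on array 1 and 837 on array 2 for Cyp2d22, where CAR-KO DEN-PB liver read 3687 to 5484. Cyp2d9 read 11246 and 2605 against 7255 to 11073, and Cyp2e1 10238 and 3910.2 against 8973 to 13791. On that array CAR-KO DEN-PB liver read 5484 for Cyp2d22, the highest of its 6 readings, 10356 for Cyp2d9 and 11957 for Cyp2e1, both within the range of its other readings. Cyp2a12 (7698 and 16046) and Cyp2j5 (1722 and 2941) read higher on array 2 than on array 1.

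**Figure D4:**
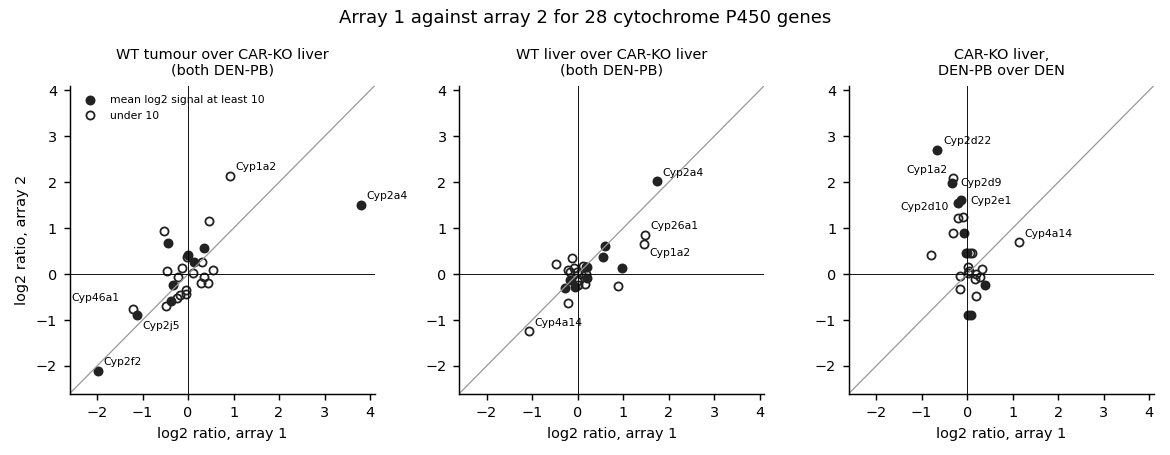
log2 ratio on array 2 (y axis) against array 1 (x axis) for the 28 P450 genes in each pair; filled points have a mean log2 signal of at least 10, and the grey line marks equal values. In the PB pair the points run up and down at array 1 values near 0, from -0.89 to 2.71 on array 2, while Cyp4a14 is at 1.15 and 0.70.

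Among genes with both PB arrays the same way, Cyp4a14 had the largest ratio, 0.92 ± 0.17 (1.15 and 0.70; unadjusted p = 0.000815, limma adjusted p = 0.99999). Cyp1b1 had 0.28 ± 0.15 (0.10 and 0.46), Cyp17a1 0.26 ± 0.18 (0.06 and 0.46), Cyp11a1 -0.24 ± 0.16 (-0.15 and -0.33) and Cyp2f2 0.23 ± 0.17 (0.01 and 0.45). Only for Cyp4a14 of the 28 genes did both readings of CAR-KO DEN liver fall outside the CAR-KO range with PB, below it, which is 3.57% of the members, where 2.53% of probes did so (1.42% above and 1.11% below).

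Genes around the P450 enzymes were counted from lists. Of 5 measured electron donors (median log2 ratio 0.54), Por, the P450 reductase, was higher in WT tumour (1.90 ± 0.17, limma adjusted p = 0.00205) and in WT liver (1.66 ± 0.17, adjusted p = 0.0220) than in CAR-KO liver, and Cyb5b, a cytochrome b5, was higher in WT tumour (0.997 ± 0.15). None of 8 measured haem synthesis and breakdown genes passed limma's test in any comparison (median 0.26 in WT tumour). Of 16 receptors and factors that regulate P450 genes, 3 were higher in WT tumour, and the list's median was -0.11. They were Ahr, the aryl hydrocarbon receptor (2.60 ± 0.16, limma adjusted p = 0.000563), Nr1i3 (1.81 ± 0.16) and the oxidative stress factor Nfe2l2 (1.34 ± 0.21). Nr1i3 encodes CAR, which the knockout liver in this ratio lacks by design, so its value cannot show a change in tumour.

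Of 3 measured targets of the aryl hydrocarbon receptor, the quinone reductase gene Nqo1 was higher in WT tumour (2.18 ± 0.16, limma adjusted p = 0.00106) and the list's median was -0.49. Of 7 measured PPARalpha targets, Acot1 (1.21 ± 0.18) and Pdk4 (1.38 ± 0.18) were higher, with a list median of 0.08. The flavin monooxygenases Fmo1 (1.40 ± 0.16) and Fmo5 (1.42 ± 0.19), which oxidise drugs beside P450 enzymes, were higher among 4 measured, and the epoxide hydrolase Ephx1 (1.66 ± 0.22) among 2. None of 6 steroidogenic cell genes passed (median -0.53). In WT liver over CAR-KO liver Por was the member of these lists that passed, and in the PB comparison none did.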

How the data were processed

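The authors deposited, per the file headers, 6 Agilent Feature Extraction outputs (version 7.1.1 for 5 arrays and 7.5.1 for array 2 of the tumour pair; 7.5 per the submitters' processing notes), with mean and background intensity, a log10 ratio of Cy5 over Cy3 and flags per spot. The deposited value table equals that log10 ratio on every array. Here, in R 4.3.3 with limma 3.58.1, intensities were background-corrected (normexp, offset 50) and loess-normalised, spots of a probe were averaged, and ratios were turned to the directions in the labels. All 6 arrays entered 1 linear model with a dye effect per probe (2 residual degrees of freedom, prior 5.48), moderated by limma's eBayes and tested 2-sided, with Benjamini-Hochberg adjustment over 20744 probes and a threshold of 0.05. Probes needed a channel well above background on at least 2 arrays. Levels are intensities after loess and Aquantile normalisation. They were compared between RNAs probe by probe, and summed over the probes of a marker list within a reading. The number of arrays limits the precision.

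Probes were named from a RefSeq table (GRCm38.p6) by accession (29 of the 31 member probes) or by a symbol in the description (2), and the brightest probe stands for a gene. Each gene could be named. Values on both arrays were to be given for called genes, the 5 largest ratios per comparison with both arrays the same way, and the 2 brightest genes per role. The genes, lists and tests were chosen with earlier results of these data known, and the count of readings without overlap was added after values were seen. The model was tested on simulated data. Alternatives covered background correction, normalisation, the filter, the dye term, array weights, the arrays fitted, the probe rule and leaving out each array. The 2 arrays of a pair alone were fitted without the dye term.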

Additional observations from a re-analysis of the deposited data

Results flagged for a closer look

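Among the 6 readings of CAR-KO DEN-PB liver, tested for each of the 28 genes, 2 genes had a reading that stood apart from the others. For Cyp17a1 the lowest reading was 545, with the nearest at 812 and the highest at 1022. For Cyp1a1 the highest reading was 115, with the nearest at 63.2 and the lowest at 54.0, and it was the 1 of the 6 that was well above background. Both came from array 1 of the tumour pair in Cy3. Chance flags about 1 in 20 such groups.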

How the results depend on the processing

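In WT liver over CAR-KO liver the count of P450 genes that passed (0 higher and 0 lower) became 2 higher and 1 lower with array weights, and 3 higher and 1 lower with that pair's 2 arrays alone, while over all probes 19 higher and 2 lower became 75 and 20, and 69 and 18. Leaving out an array gave 0 to 2 higher and 0 to 1 lower, with 2 and 1 without either tumour array (76 and 18 over all probes). In WT tumour over CAR-KO liver (2 higher and 2 lower) the counts were 0 and 0 with the authors' processed log ratio, 1 and 1 without the dye term, 1 and 1 with array weights, and 0 and 1 with the 2 arrays alone. They were 4 higher with median centring in place of loess and 1 lower without background subtraction, and 3 and 3 when both channels had to be above background on all 6 arrays. Leaving out an array gave 2 to 3 higher and 1 to 4 lower, with 4 lower without tumour array 2 (2909 of 20729 probes were lower there) and 1 lower without any array of the WT liver or PB pair, where Cyp46a1 no longer passed. For WT tumour over WT liver (0 and 0) leaving out an array gave 0 to 1 higher and 0 to 2 lower, the non-zero counts without tumour array 1 (122 and 72 over all probes) or 2 (426 and 1739). The PB comparison gave 0 in each alternative run. Without 1 array of a pair, that pair's ratio rests on its other array, and its p-value holds no spread between them. Leaving out an array moved the PB ratio of Cyp17a1 between -0.071 and 0.59 and that of Cyp2f2 between -0.034 and 0.49, both below 0 without PB array 2. It moved the ratio of Cyp2a4 in WT tumour over WT liver between -0.14 and 1.70, below 0 without tumour array 1. The value below 0 rests on tumour array 2, where the Cyp2a4 tumour spot was saturated. The sign also turned for Cyp2a12 in WT tumour over WT liver with median centring (0.19). Of 294 values of named genes, 255 kept their direction and side of the threshold, 17 lost and 18 gained a pass, and 4 turned. Over all probes in WT tumour, 75.1% of the calls were higher as reported, 57.3% with median centring and 38.2% without tumour array 2. Of 698 such calls, 524 were higher and 174 lower. With median centring it was 2370 higher and 1763 lower, with array weights 194 and 42, with the 2 arrays alone 53 and 9, and with the processed log ratio 0 and 0. The median of the 28 ratios ran from -0.19 to 0.20 in WT tumour and -0.10 to 0.05 in WT liver over CAR-KO liver. The cause was not tested. No paired analysis was possible because the labels give no replicate numbers shared between groups.

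With 2 arrays a comparison and labels silent on animals, the spread between animals is not known. Cyp1a1, Cyp1b1 and Cyp24a1 lay near background, and the Cyp2a4 reading of WT tumour on array 2 was saturated.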

Other observations

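Of the 22 probes described as cytochrome P450 with no current symbol, 2 passed in WT tumour over CAR-KO liver, both lower. Of all probes 3.36% passed there (0.839% lower). None of the 22 passed in another comparison by limma. Some are described as like genes outside the set, such as Cyp2c genes or P450 reductase. The 2 were a 4a10-like probe with values in the report and a probe described as P450IIIA25, a Cyp3a name and so outside the set. The latter had a log2 ratio of -1.01 (-0.99 and -1.02 on the arrays; limma adjusted p = 0.0254).

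The 9 brighter P450 genes (mean log2 signal of at least 10) had a median PB ratio of -0.06 on array 1 and 0.90 on array 2, where all 1088 probes this bright had 0.01 and 0.17. The 19 dimmer genes had 0.02 and 0.16, where the 19656 dimmer probes had 0.006 and -0.008.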
